A study of Mus musculus with 20 samples.

Results

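The genes described here are 10 rows of the deposited table whose symbol is Trp53, Trp53i11, Trp53inp1, Cdkn1a, Mdm2, Ccng1, Zmat3, Gadd45a, Gadd45b or Gadd45g, out of 59311 annotated genes. They were chosen by symbol as p53 target and growth arrest genes, and the set was selected on the level of Trp53i11 in Ly6C low cells of Ac-6-FP mice. The Ac-6-FP against vehicle contrast in Ly6C low cells, and any difference that contains it, is therefore given as values and differences without a test. RNA was sequenced in bulk from F4/80+ CD11b+ monocyte-derived macrophages (MoMac, gated as negative for Ly6G, CD11c and CD3) of livers of male C57BL/6J mice, all of which received CCl4 for 4 weeks to induce fibrosis. Mice 16 to 20 were given Ac-6-FP, a ligand of MR1 that holds mucosal-associated invariant T cells inactive, around and after the last CCl4 injection. Mice 11 to 15 were given its vehicle, diluted DMSO, so no mouse without CCl4 stands beside them. The Ly6C hi and the Ly6C low fraction were sorted from each mouse, which gave 20 libraries in 4 groups of 5.

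The transcription factor p53 (Trp53) accumulates when DNA is damaged or cells are stressed, and it switches on genes that stop the cell cycle, repair DNA or lead to cell death. Cdkn1a encodes the cyclin-dependent kinase inhibitor p21, the main brake that p53 puts on the cycle, while Mdm2 encodes the ubiquitin ligase that returns p53 to a low level. The Gadd45 proteins are small stress sensors that bind cell cycle kinases and the kinase upstream of p38 and JNK, and they are induced with or without p53.

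Each value is a normalized count, the reads counted on a gene divided by a size factor of the library. It is not divided by gene length, so levels were compared between libraries and not between genes. Where a gene is listed at 0, as many as 3 reads would be compatible with counting error alone. All 10 genes passed the filter on low values, a mean of 10 or more in at least 1 group. Differences are on the log2(normalized count + 1) scale on which small values above 0 are compressed while a library at 0 weighs heavily. The difference of a gene with some libraries at 0 can therefore exceed the ratio of its group means or have the other sign.

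The promoters of 2 genes are shown because Trp53i11 is the gene that stood apart between the groups and Cdkn1a is a p53 target with reads in every library. They are RefSeq sequences of build GRCm38.p6, plus strand, 5′ to 3′, from 250 bases before to 50 bases after the start of the gene, and capitals mark matches to the 10-base p53 half-site, which reads alike on both strands. The windows lie at chr2:93187298-93187597 for Trp53i11 and at chr17:29090729-29091028 for Cdkn1a.
Trp53i11: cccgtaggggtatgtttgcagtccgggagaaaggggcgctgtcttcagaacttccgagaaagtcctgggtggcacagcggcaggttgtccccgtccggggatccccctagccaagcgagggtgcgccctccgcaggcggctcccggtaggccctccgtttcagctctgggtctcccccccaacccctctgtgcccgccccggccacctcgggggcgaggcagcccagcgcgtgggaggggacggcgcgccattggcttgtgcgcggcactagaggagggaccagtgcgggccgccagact
Cdkn1a: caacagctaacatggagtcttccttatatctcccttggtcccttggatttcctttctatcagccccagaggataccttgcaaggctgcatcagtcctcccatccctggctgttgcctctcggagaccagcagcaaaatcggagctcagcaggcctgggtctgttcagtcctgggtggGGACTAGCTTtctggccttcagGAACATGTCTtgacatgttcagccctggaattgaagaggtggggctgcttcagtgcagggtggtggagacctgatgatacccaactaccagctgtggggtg
The Cdkn1a window shown holds 2 matches, which begin 73 and 51 bases before the start, and the Trp53i11 window holds 0. A second Cdkn1a window in the table, 2790 bases downstream at chr17:29093519-29093818, holds 0 as well. A window was at hand for 8 of the 10 genes, and those of Trp53, Mdm2, Ccng1 and Gadd45a hold 1 match each. At least 1 match occurs in 8.36% of the 32851 promoter windows of the same length, and a match is a description of the letters, not of binding.

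The libraries held 5693049 to 18682437 reads on genes and 5343 to 15766 genes above 0. The library with the fewest reads and genes was the Ly6C low vehicle library of mouse 13, in which 2765 of the 6652 genes with a median of at least 100 were listed at 0. More genes were detected with Ac-6-FP than with vehicle, 13411 ± 1604 against 10793 ± 2267 in Ly6C hi and 14024 ± 1880.2 against 10952 ± 3954 in Ly6C low libraries (mean ± SD, n = 5), and neither difference passed (exact permutation, p = 0.0794 and 0.159). The labelled subsets differed in Ly6c2, which encodes a Ly6C antigen and was listed at 4930.2 to 10012 in Ly6C hi and at 284 to 1014 in Ly6C low libraries. Adgre1, which encodes F4/80, was above 0 in all libraries. The 8 measured markers of T and NK cells summed to 0 to 954 in Ly6C hi and to 40813 to 89703 in Ly6C low libraries, led by Gzma and Nkg7, while Cd3e was listed at 0 in 18 of 20 libraries. The 8 neutrophil markers summed to 8756 to 15095 in Ly6C hi and to 10090.2 to 132601 in Ly6C low libraries, where Retnlg was the main one. Mmp8 led the Ly6C hi sum and went the other way. Its medians with vehicle and Ac-6-FP were 8127 and 5789 in Ly6C hi, against 272 and 488 in Ly6C low libraries. Camp, Ngp and Ltf had medians of 0 in Ly6C hi libraries of either treatment. The 6 dendritic cell markers summed to 0 to 358 in Ly6C hi and to 261 to 3540.1 in Ly6C low libraries. Itgax, which encodes CD11c, was at 0 in all Ly6C hi libraries and reached 3302 in Ly6C low libraries despite the gate.

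**Figure D1:**
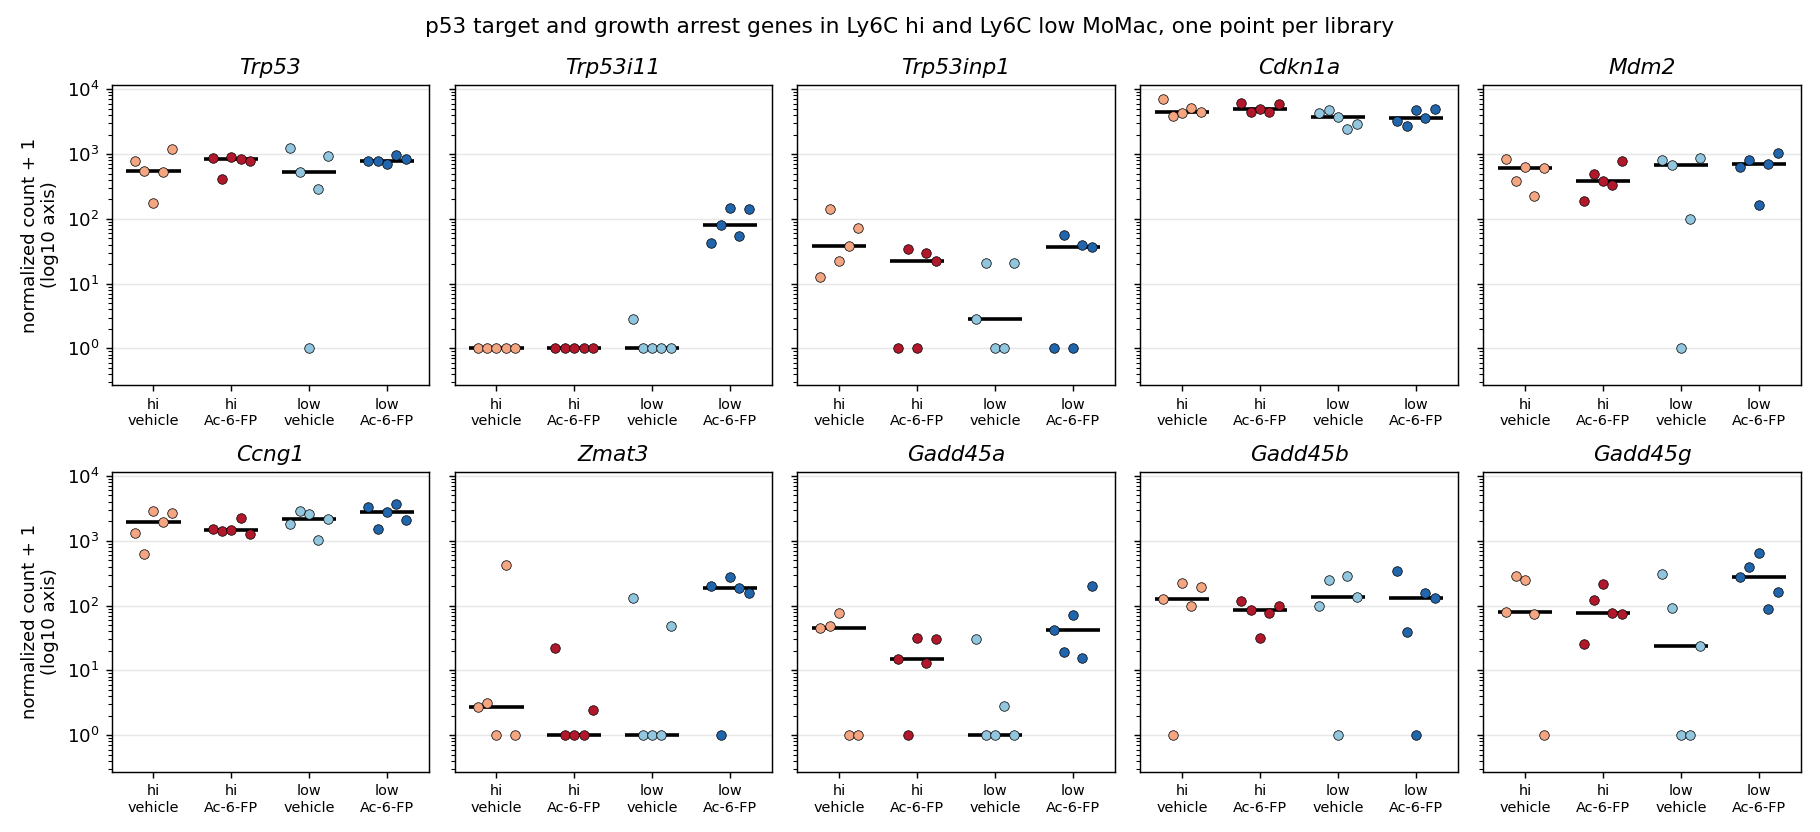
Normalized count + 1 of the 10 genes on a log10 axis, 1 point per library in mouse order and a line at the median of each group of 5. Trp53i11 is at 0 in 14 of 20 libraries and above 3 reads in the 5 Ly6C low Ac-6-FP libraries alone.

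Trp53i11, named as a p53-inducible gene, was read in Ly6C low cells of Ac-6-FP mice and almost nowhere else. Trp53i11 was listed in Ly6C low libraries at 1.84, 0, 0, 0 and 0 with vehicle and at 41.6, 78.5, 148, 53.1 and 141 with Ac-6-FP. All 10 Ly6C hi libraries were listed at 0. The value of mouse 11 came from 2 reads, and the 5 Ac-6-FP libraries held 452 reads. Against the floor of 3 reads over the 5 Ly6C hi Ac-6-FP libraries, the Ly6C low Ac-6-FP level was 168-fold higher. That floor covers counting error alone. Genes with many reads in other libraries, such as Trp53 and Mdm2, were also listed at 0 in a single library, so the ratio is not a lower bound. The difference on the log2 scale, Ac-6-FP minus vehicle in Ly6C low cells, was 6.07 (standard error 0.99), and 5.99 without mouse 13. Its size depends on how libraries at 0 are treated, at 8.82 with a pseudocount of 0.1, 3.17 with a pseudocount of 10, 4.33 with quantile normalization and 7.40 with edgeR. The groups did not overlap, which held for 1.32% of the 16829 genes tested in Ly6C low cells with all Ac-6-FP libraries on the higher side. The gene was selected on this contrast, so nothing is read from its place among those. In the same Ly6C low libraries the neutrophil granule genes Camp, Ngp and Ltf had medians of 22.7, 111 and 0 with vehicle and 2543, 2676 and 2376 with Ac-6-FP, with overlap. The summed neutrophil markers had medians of 40228 with vehicle and 44636 with Ac-6-FP, the 5 Kupffer cell markers of 16.0 and 356, and the 5 endothelial markers of 685 and 1982. Pecam1 led the endothelial sum, with medians of 685 and 1922, while Kdr, Stab2, Cdh5 and Lyve1 had medians of 0 to 10.2. Sums of dendritic cell markers had medians of 1599 and 2539, led by Itgax with medians of 1407 and 2055. Those of T and NK markers had medians of 57641 and 56112. The part of these cells in the level of Trp53i11 was not tested.

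The gene lies on chr2:93187547-93201757 (build GRCm38) and the 1 annotated entry that overlaps it had 0 reads in all libraries. Of the 59311 genes, 3 had over 3 reads in all 5 Ly6C low Ac-6-FP libraries and at most 3 in the other 15. They were Trp53i11, Rgs16, which encodes a regulator of G protein signalling, and an unnamed entry that overlaps Rgs16, and they were sought after the values of Trp53i11 had been seen. Rgs16 was listed at 167, 195, 263, 103 and 189 normalized counts in mice 16 to 20 and at 0 in the other 15 libraries. For each of the other 3 groups, 0 genes had the corresponding pattern. The pattern was defined by the values of Trp53i11, so it is among the 3 by construction and nothing is read from these counts.

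Trp53 itself was present in 19 of 20 libraries, and its level did not separate the groups. The Ly6C hi normalized counts of Trp53 were 788, 545, 177, 533 and 1213 in mice 11 to 15 and 861, 406, 897, 826 and 767 in mice 16 to 20. The groups overlapped, and the log2 difference of 0.40 (standard error 0.47) was within the spread between mice (limma adjusted p = 0.727, exact permutation p = 0.484). In Ly6C low cells, Trp53 had normalized counts of 1220.4, 530.3, 0, 292 and 936 with vehicle and 767, 786, 709, 962 and 843 with Ac-6-FP. The library of mouse 13 at 0 set the Ly6C low difference, which was 2.19 (standard error 1.64) with it and 0.32 without it. Between the subsets, Ly6C hi minus Ly6C low within mouse, the difference was 0.73 (standard error 0.66, limma adjusted p = 0.61, exact sign-flip p = 0.537, higher in Ly6C hi in 6 of 10 mice), and 0.00072 without mouse 13. With genes detected as a covariate it was 1.16 (limma adjusted p = 0.0494). Trp53 therefore gave no call with Ac-6-FP in Ly6C hi cells, and between the subsets a call under that 1 setting.

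Trp53inp1, which encodes a stress-induced nuclear protein that promotes p53 activity, was listed at 142 or less in all libraries. Trp53inp1 was listed in Ly6C hi libraries at 11.5, 142, 21.2, 37.7 and 72.2 with vehicle and at 0, 32.7, 0, 28.4 and 21.6 with Ac-6-FP. Ac-6-FP libraries lay toward the lower side with overlap, at a log2 difference of -2.46 (standard error 1.40, limma adjusted p = 0.6, exact permutation p = 0.135). The Ly6C low normalized counts of Trp53inp1 were 1.84, 19.8, 0, 0 and 19.9 in mice 11 to 15 and 0, 55.0, 0, 38.5 and 36.2 in mice 16 to 20. Among the 5 vehicle mice the Ly6C hi library was the higher one in 5 of 5, with a within-mouse log2 difference of 3.30 ± 1.51 (SD, n = 5). Among the Ac-6-FP mice it was higher in 0 of 5 and lower in 3, with both libraries at 0 in the others, and the difference was -0.38 ± 0.36 (SD, n = 5). Over all 10 mice the subset difference was 1.46 (standard error 0.60, limma adjusted p = 0.233, exact sign-flip p = 0.0703). How far the subset difference itself varied with treatment, -3.67 (standard error 1.20) for Ac-6-FP minus vehicle mice, is given without a test because it contains the Ly6C low contrast. With pseudocounts of 0.1 and 10 it was -5.10 and -2.01. No gene of 17248 (0%) was called for this difference by limma or edgeR, and 840 had an unadjusted p under 0.05 with limma. In simulated data limma recovered 26% of genes changed by 2 log2 units for such a difference, so changes of that size can be missed.

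Cdkn1a was read in every library at a steady level that did not move with Ac-6-FP beyond the spread between mice. In Ly6C hi cells, Cdkn1a had normalized counts of 7167, 3919, 4217, 5194 and 4400.2 with vehicle and 6163, 4384, 4897, 4523 and 5937 with Ac-6-FP. The group means were 4979 ± 1311 with vehicle and 5181 ± 819 with Ac-6-FP (SD, n = 5), and the log2 difference was 0.08 (standard error 0.18, limma adjusted p = 0.873, exact permutation p = 0.714). It changed sign, to -0.21, when genes detected was a covariate. Cdkn1a was listed in Ly6C low libraries at 4276, 4779, 3752, 2399.6 and 2948 with vehicle and at 3209.9, 2720.1, 4742, 3608 and 4899.5 with Ac-6-FP. Here the log2 difference was 0.09 (standard error 0.25), given as a description.

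Between the subsets Cdkn1a was higher in Ly6C hi than in Ly6C low cells, with means of 5080.1 ± 1036 against 3733 ± 911 normalized counts (SD, n = 10). The fold taken from the log2 difference was 1.38. The log2 difference was 0.46 (standard error 0.14), and it was positive in 9 of 10 mice, mouse 12 being the exception. Its exact sign-flip p was 0.0117 over 10 mice, where the smallest possible is 0.00195, but over all 17248 genes it did not pass (limma adjusted p = 0.104). It passed with limma array weights (0.51, adjusted p = 0.0298) and without mouse 12 (0.55, adjusted p = 0.0425), and the adjusted p ranged from 0.0298 to 0.228 over the alternatives. The within-mouse difference was 0.46 ± 0.54 in vehicle and 0.46 ± 0.36 in Ac-6-FP mice (SD, n = 5). Of the 9 genes other than Trp53i11, 0 passed for the subset difference, where 900 of 17248 genes (5.22%) were called by limma. The difference of Trp53i11, -3.34 (standard error 0.49), rests on the Ly6C low Ac-6-FP libraries and is not counted. It was -5.27 with a pseudocount of 0.1, -1.63 with a pseudocount of 10 and -5.38 with edgeR. The T and NK, neutrophil and dendritic cell markers given above differed between the subsets, and their part in these differences was not tested. In bulk RNA, fewer cells of a type and less RNA per cell cannot be told apart.

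**Figure D2:**
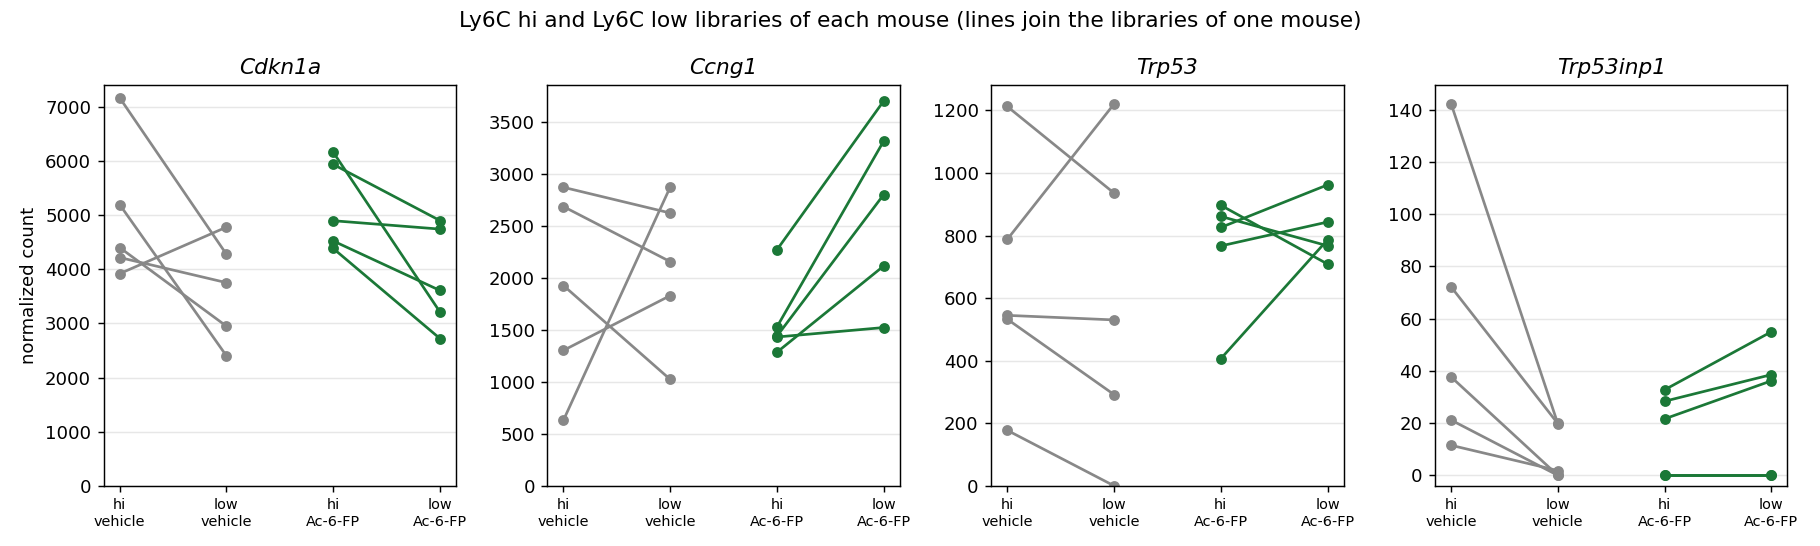
Normalized counts of Cdkn1a, Ccng1, Trp53 and Trp53inp1 in the Ly6C hi and the Ly6C low library of each mouse, joined by a line, with vehicle mice in grey and Ac-6-FP mice in green. Cdkn1a is lower in the Ly6C low library of 9 of 10 mice, and Ccng1 is higher in that of all 5 Ac-6-FP mice.

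Mdm2, the feedback ligase of p53, varied widely within each group. The Ly6C hi normalized counts of Mdm2 were 828, 376, 634, 224 and 612 in mice 11 to 15 and 187, 495, 378, 333 and 768 in mice 16 to 20. The groups overlapped at a log2 difference of -0.32 (standard error 0.46, limma adjusted p = 0.782, exact permutation p = 0.532). In Ly6C low cells, Mdm2 had normalized counts of 803, 673, 0, 97.8 and 871 with vehicle and 622, 804, 163, 713 and 1028 with Ac-6-FP. As for Trp53, mouse 13 at 0 set the Ly6C low difference, which was 2.07 (standard error 1.66) over all libraries and 0.29 without it. The subset difference was 0.65 (standard error 0.86, limma adjusted p = 0.708, exact sign-flip p = 0.82), positive in 4 of 10 mice, and -0.29 without mouse 13.

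Ccng1, which encodes cyclin G1, a p53 target that acts on Mdm2 through a phosphatase, was read in all 20 libraries. Ccng1 was listed in Ly6C hi libraries at 1304, 633, 2875, 1929 and 2689 with vehicle and at 1531, 1433, 1442, 2274 and 1287 with Ac-6-FP. With Ac-6-FP the values lay inside the vehicle range, at a log2 difference of -0.08 (standard error 0.38, limma adjusted p = 0.948, exact permutation p = 0.873). The Ly6C low normalized counts of Ccng1 were 1832, 2878, 2628, 1024 and 2159 in mice 11 to 15 and 3322, 1524, 2806, 3707 and 2118 in mice 16 to 20. The Ly6C low difference was 0.37 (standard error 0.35), and 0.13 to 0.56 when leaving out each mouse. Ccng1 lay the other way from Cdkn1a between the subsets, at 1739.8 ± 696 in Ly6C hi and 2399.7 ± 825 in Ly6C low libraries (SD, n = 10), a log2 difference of -0.49 (standard error 0.26, limma adjusted p = 0.37, exact sign-flip p = 0.105). Leaving out each mouse gave -0.64 to -0.25 for this subset difference. Within mouse it was -0.72 ± 0.39 in Ac-6-FP mice, lower in Ly6C hi in 5 of 5, and -0.26 ± 1.18 in vehicle mice (SD, n = 5), lower in 2 of 5.

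Zmat3 encodes a zinc finger protein that binds RNA and is a direct p53 target. In Ly6C hi cells, Zmat3 had normalized counts of 1.77, 2.14, 0, 416 and 0 with vehicle and 21.2, 0, 0, 0 and 1.49 with Ac-6-FP. A single library, that of mouse 14, held most of the Ly6C hi reads, and the log2 difference was -1.21 (standard error 1.69, limma adjusted p = 0.776, exact permutation p = 0.563). Zmat3 was listed in Ly6C low libraries at 131, 0, 0, 0 and 47.3 with vehicle and at 201, 0, 270.2, 187 and 156 with Ac-6-FP. It was above 3 reads in 4 of 5 Ac-6-FP and 2 of 5 vehicle libraries of Ly6C low cells, with overlap, at a difference of 3.59 (standard error 2.03). The subset difference was -2.56 (standard error 1.38, limma adjusted p = 0.375, exact sign-flip p = 0.148). Within mouse it was -0.16 ± 5.93 in vehicle mice and -4.96 ± 3.36 in Ac-6-FP mice (SD, n = 5). The annotated gene 4930429B21Rik covers the whole of Zmat3 and held 97.8% as many reads. The counts of both were 0 in 8 libraries and equal above 0 in 0 libraries. Unnamed entries also cover Cdkn1a, Mdm2, Ccng1 and Gadd45b and held 94.3% to 106% as many reads as each of them. Whether the counting used strand was not given in the sources used here, so the reads of a gene and an overlapping entry cannot be told apart.

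The Gadd45 genes were read in most libraries, and in Ly6C hi cells none of the 3 passed the test with Ac-6-FP. The Ly6C hi normalized counts of Gadd45a were 44.2, 48.2, 75.9, 0 and 0 in mice 11 to 15 and 13.7, 0, 31.1, 12.0 and 29.1 in mice 16 to 20. In Ly6C hi cells, Gadd45b had normalized counts of 124, 0, 226, 97.6 and 192 with vehicle and 119, 83.5, 30.2, 75.6 and 96.9 with Ac-6-FP. Gadd45g was listed in Ly6C hi libraries at 79.7, 283, 249.7, 73.5 and 0 with vehicle and at 25.0, 123, 213, 75.6 and 73.8 with Ac-6-FP. Each had overlapping groups, and the log2 differences were 0.02 (standard error 1.67, limma adjusted p = 0.996) for Gadd45a, 0.43 (standard error 1.37, limma adjusted p = 0.918) for Gadd45b and 0.64 (standard error 1.42, limma adjusted p = 0.869) for Gadd45g. Their listed means were lower with Ac-6-FP, 17.2 against 33.7, 81.0 against 128 and 102 against 137, and all 3 log2 differences turned negative with quantile normalization and with edgeR on the recovered reads. Their exact permutation p-values were 1.0, 0.992 and 0.849.

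For Ly6C low cells, Gadd45a and Gadd45g had larger values with Ac-6-FP than in most vehicle libraries, and Gadd45b did not. The Ly6C low normalized counts of Gadd45a were 29.4, 0, 0, 1.78 and 0 in mice 11 to 15 and 41.6, 17.9, 71.7, 14.6 and 197 in mice 16 to 20. Mouse 11 was the 1 vehicle library of Gadd45a above 3 reads, while all 5 Ac-6-FP libraries were. In Ly6C low cells, Gadd45g had normalized counts of 309.9, 89.2, 0, 0 and 22.7 with vehicle and 273, 397, 656, 88.2 and 161 with Ac-6-FP. Again all 5 Ac-6-FP libraries were above 3 reads, and 2 of 5 vehicle libraries were at 0. Gadd45b was listed in Ly6C low libraries at 97.5, 252, 0, 285 and 132 with vehicle and at 341, 38.1, 0, 158 and 129.9 with Ac-6-FP. The Ly6C low log2 differences were 4.21 (standard error 1.34) for Gadd45a, 4.12 (standard error 1.63) for Gadd45g and -0.35 (standard error 1.92) for Gadd45b, and 3.88, 3.15 and -1.85 without mouse 13. The Gadd45a difference was 6.28 with a pseudocount of 0.1, 2.07 with a pseudocount of 10 and 2.01 after quantile normalization. Between the subsets the 3 differences were 0.11, 0.13 and 0.23 in the same order, with limma adjusted p-values of 0.962, 0.963 and 0.939, and each was negative without mouse 13. Among Ac-6-FP mice both Gadd45a and Gadd45g were lower in Ly6C hi in 5 of 5, by -1.99 ± 1.54 and -1.61 ± 1.16 (SD, n = 5), and among vehicle mice they were higher in Ly6C hi in 3 of 5.

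**Figure D3:**
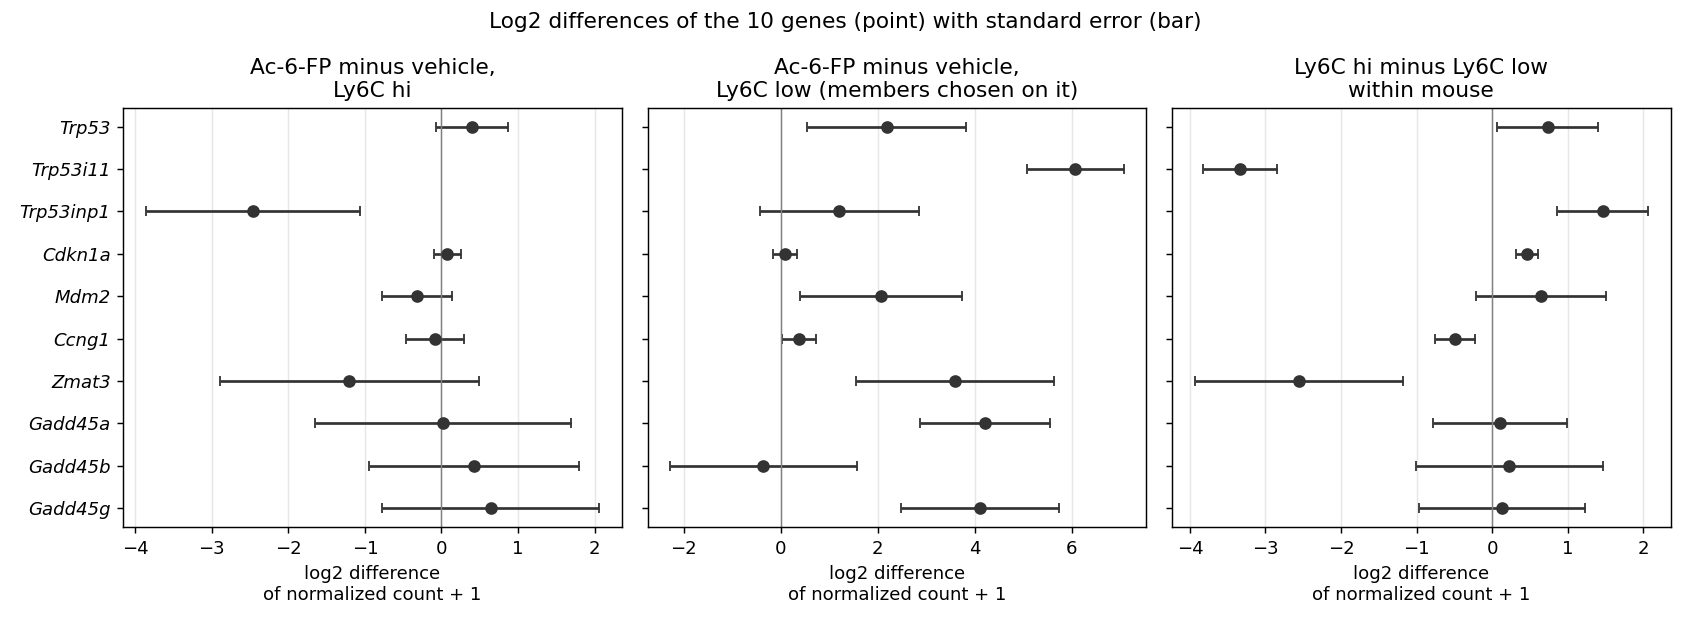
Log2 differences of the 10 genes (points) with their standard errors (bars), from left to right for Ac-6-FP minus vehicle in Ly6C hi, the same in Ly6C low, and Ly6C hi minus Ly6C low within mouse. Trp53i11 has no point on the left because all Ly6C hi libraries were at 0, and in Ly6C low cells 9 of 10 points lie above 0.

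Counted together on the log2 scale, 5 of the 9 genes with reads in Ly6C hi cells lay higher and 4 lower with Ac-6-FP, with a median log2 difference of 0.02. By the means of the listed values 2 were higher (Trp53 and Cdkn1a) and 7 lower, and with edgeR or quantile normalization Trp53 and Cdkn1a were again the 2 that lay higher. With genes detected as a covariate the 2 higher genes were Trp53 (0.068) and Gadd45g (1.56), and Cdkn1a turned to -0.21. None passed the test, as was so for all 15839 genes there (0%, 0 by edgeR as well, 1517 at an unadjusted p under 0.05 with limma), whose median was 0.49 with 68.5% of them higher. Quantile normalization brought that median to -0.015. All 5 Ac-6-FP libraries lay above all 5 vehicle libraries in 1.05% of those genes and in 0 of the 9. Within Ly6C low cells 9 of the 10 were higher with Ac-6-FP, with a median of 2.13, beside a median of 0.97 and 72.3% higher over the 16829 genes tested, of which 2 (0.0119%) were called. The set was selected on this contrast through Trp53i11, which is among the 10. Nothing is therefore read from how the 10 stand beside all genes in Ly6C low cells. Without mouse 13 the median of the 10 was 0.59 and that of all genes 0.40. With genes detected as a covariate 6 of the 10 were higher, with a median of 0.25 against 0.089 for all genes, and Trp53 (-0.24), Mdm2 (-0.54) and Trp53inp1 (-0.0067) turned lower beside Gadd45b. Quantile normalization left 8 of 10 higher, Trp53inp1 turning to -0.23, with a median of 1.49 against 0.021 for all genes. The Ly6C hi and Ly6C low contrasts share no libraries, but both come from the same 10 mice.

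How many of the 10 genes were read at all differed between libraries. Over 3 reads were found for 8, 7, 8, 8 and 6 of them in the Ly6C hi libraries of mice 11 to 15, and for 8, 7, 7, 8 and 8 in those of mice 16 to 20. In Ly6C low libraries the number was 8, 7, 2, 5 and 8 with vehicle and 9, 9, 8, 10 and 10 with Ac-6-FP. The lowest number belonged to mouse 13, where 8 of 10 were at 0 and Cdkn1a and Ccng1 alone were read. In Ly6C low libraries the lowest numbers, 2 and 5, belonged to those with the fewest genes detected, 5343 and 9788. In Ly6C hi libraries no such order was seen, since 9495 genes went with 8 and 13098 with 7. The Ly6C low differences with genes detected as a covariate are those given above.

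**Figure D4:**
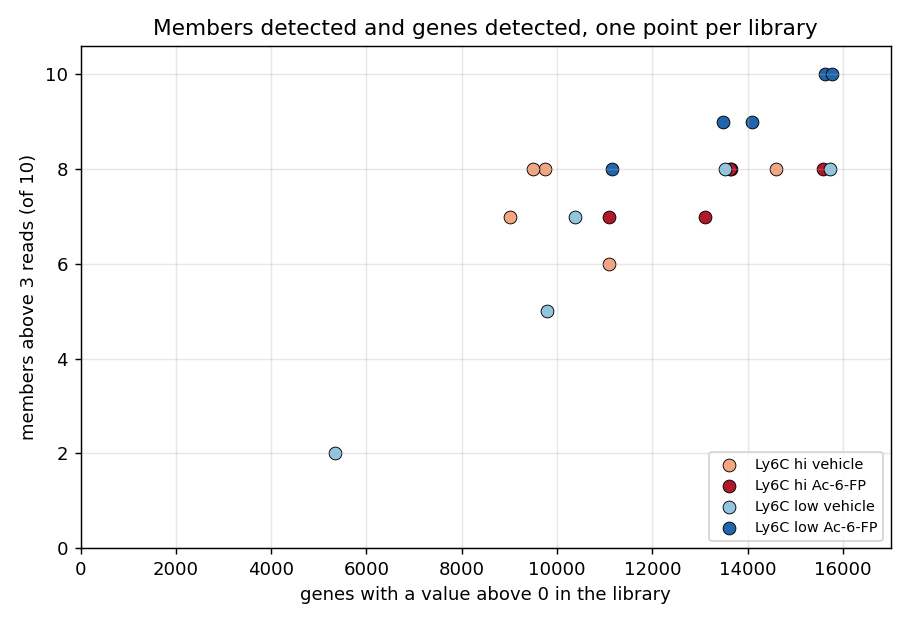
Number of the 10 genes above 3 reads against the number of genes above 0, 1 point per library and 1 colour per group. The Ly6C low library with 5343 genes holds 2 of the 10, and both libraries that hold all 10 had 15631 and 15766 genes.

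Of 74 further genes of the p53 pathway and its neighbours, 59 were tested in Ly6C hi cells and 0 were called with Ac-6-FP, 42 having a higher and 17 a lower mean, with a median of 0.65. Over all 15839 genes 0 were called, 68.5% were higher and the median was 0.49. The p53 regulators had a median of 1.62 (10 of 13 higher), the other targets in arrest, repair and metabolism 0.59 (16 of 22 higher), the targets in apoptosis 0.09 (5 of 9 higher), the other inhibitors of cyclin-dependent kinases and pocket proteins 1.86 (5 of 6 higher) and the kinases downstream of Gadd45 0.14 (6 of 9 higher). Neither Trp63 nor Trp73, the relatives of p53, passed the filter. Among those tested in Ly6C low cells, 45 of 62 were higher, with a median of 0.95, and 0 were called, beside 72.3% higher, a median of 0.97 and 2 calls over all 16829 genes.

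Between the subsets 63 of these genes were tested, and 3 (1 higher and 2 lower in Ly6C hi) passed the test, beside 5.22% of all genes. The folds given for them are taken from the log2 differences, not from the medians. Cdkn2d, which encodes the kinase inhibitor p19INK4d, was 1.97-fold higher in Ly6C hi, where it ranged from 3181 to 5237 (median 3785) against 1527 to 2886 (median 2005) in Ly6C low libraries. The ranges did not overlap, and it was higher in 10 of 10 mice (log2 difference 0.98, standard error 0.14, limma adjusted p = 0.00118). Pmaip1, which encodes the BH3-only death factor Noxa, was 3.30-fold higher in Ly6C low, at 3563 to 14231 (median 8669) against 1262 to 6371 (median 2332). It was higher there in 9 of 10 mice (log2 difference -1.72, standard error 0.20, limma adjusted p = 0.000275). Btg2, an antiproliferative gene induced by p53, was 1.46-fold higher in Ly6C low, at 5762 to 24919 (median 19079.9) against 6644 to 14166 (median 11021), and in 9 of 10 mice (log2 difference -0.54, standard error 0.11, limma adjusted p = 0.0102). Without the pairing of libraries by mouse Btg2 did not pass (limma adjusted p = 0.0956), nor did it with edgeR without mouse 15 (adjusted p = 0.0894). The share called, 3 of 63, was near that of all genes and is no result about these lists. The marker sums of other cell types that differed between the subsets stand beside these 3 genes as well, and their part was not tested.

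Genes of proliferating cells, which p53 targets hold back, were summed over a list of 12. Their sum in Ly6C hi libraries ran from 3506 to 6597 for vehicle and from 6910.1 to 16445 for Ac-6-FP, without overlap. By gene 11 of the 12 lay higher there with a median log2 difference of 1.46 and none passed the test, beside 68.5% higher and a median of 0.49 over all genes. The Ly6C low sums ran from 2009.8 to 4526 and from 2559 to 5404, with overlap. In Ly6C low cells 10 of the 12 genes lay higher with Ac-6-FP and 0 were called. Their median log2 difference was 1.87, beside 72.3% higher and a median of 0.97 over all genes. Immediate early genes, which rise within minutes when tissue is dissociated, had a median sum of 41141 with vehicle and 87625 with Ac-6-FP in Ly6C hi, and of 34571 and 111306 in Ly6C low libraries. The sum covers the 8 measured genes of a list of 12. The treatment groups overlapped in both subsets, with the vehicle libraries of mouse 11 at 87860 in Ly6C hi and at 122001 in Ly6C low. Both sums had higher medians with Ac-6-FP, and their part in the levels of the 10 genes was not tested. Between the subsets the proliferation sum had medians of 6753 in Ly6C hi and 3430 in Ly6C low libraries. By gene 11 of the 12 were higher in Ly6C hi, with a median log2 difference of 2.29 and 1 called. Over all genes 48.8% were higher, 5.22% were called and the median was -0.034. The part of these genes in the subset differences of Cdkn1a and Cdkn2d was not tested.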

How the data were processed

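RNA of sorted liver macrophages was read with a low-input library kit. The authors aligned the reads with STAR 2.4.0 to mm10, counted them on constitutive regions of FAST DB genes and divided them by DESeq2 size factors. The deposited values are this signal on a linear scale. They were multiples of 1 step per library, which gave whole reads for 100% of values above 0 (tolerance 0.006). For mouse 15 the Ly6C hi step was near 1, so edgeR was repeated without this mouse.

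Genes with a mean of 10 in at least 1 group (17248) were fitted with limma 3.58.1 in R 4.3.3 on log2(normalized count + 1), leaving out genes without a read in the libraries compared, and p-values were adjusted by Benjamini-Hochberg over all genes tested. The count test, edgeR 4.0.16 (quasi-likelihood) on the recovered reads, called 0 genes for Ac-6-FP in either subset and 511 between subsets. Subsets were compared on within-mouse differences, since both come from 1 mouse by the labels and Methods; residuals of libraries of 1 mouse correlated at a median of 0.0338. Exact tests were two-sided, and 5 against 5 mice allow a smallest p of 0.00794. Scripts were tested on simulated data with 200 genes changed by 2 log2 units. Of these, 79% to 88.5% were recovered for Ac-6-FP within a subset. For the difference of the Ac-6-FP effect between subsets, 26% were recovered with limma and 27.5% with edgeR. Alternatives were other pseudocounts (0.1, 10), filters, quantile normalization, array weights, genes detected as a covariate, edgeR, no pairing and leaving out each mouse. The genes and lists were chosen with earlier results of these data known. All 10 genes are named, and of 6 pathway lists those past an adjusted p of 0.05 in Ly6C hi or between subsets, at most 5 per list.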

Additional observations from a re-analysis of the deposited data

Results flagged for a closer look

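In 38 groups of 5 libraries with any reads, 7 values of the 10 genes lay far from the others of their group, where about 1 in 20 groups of evenly spread values does so by chance, a rate that does not hold for groups mostly at 0. Trp53 was lowest in the Ly6C hi Ac-6-FP library of mouse 17, at 406 normalized counts against 767 in the nearest. Ccng1 was highest in the Ly6C hi Ac-6-FP library of mouse 19, at 2274 against 1531. Zmat3 was highest in the Ly6C hi vehicle library of mouse 14, at 416 against 2.14, and in the Ly6C hi Ac-6-FP library of mouse 16, at 21.2 against 1.49. The Ly6C low vehicle library of mouse 11 lay far above the others of its group for 3 genes, Trp53i11 at 1.84 against 0 (2 reads, under the floor of 3, in a contrast the gene was selected on), Gadd45a at 29.4 against 1.78 and Gadd45g at 309.9 against 89.2. That library had 15723 genes above 0, the most of its group.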

How the results depend on the processing

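No gene was called with Ac-6-FP in Ly6C hi cells except when genes without a read were kept (13, chosen after seeing the data) and without mouse 11 (106), the range when leaving out each mouse being 0 to 106. In Ly6C low cells the 2 calls became 9 when such genes were kept and 0 with either other pseudocount, no filter, quantile normalization, the covariate, array weights or edgeR (also of 9 mice), and 0 to 67 when leaving out each mouse, the highest without mouse 11. The 900 calls between subsets became 1848 with the covariate (1097 higher in Ly6C hi and 751 in Ly6C low), 511 with edgeR, 392 with edgeR of 9 mice without mouse 15 (chosen after seeing the data), and 654 to 1154 when leaving out each mouse. The difference of the Ac-6-FP effect between subsets gave 2 calls with a filter at a mean of 100, 1 with quantile normalization and 3 without the replicate block, against 0. Apart from these and Btg2, leaving out the pairing changed no call of a named gene.

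Directions that changed in tested comparisons were all of log2 differences that had not passed. In Ly6C hi cells Gadd45a became -0.34 with a pseudocount of 10, -1.17 with quantile normalization, -0.42 with the covariate, -0.016 with array weights, -0.996 with edgeR and -1.32 with edgeR of 9 mice. Gadd45b became -0.13, -0.11, -0.93, -0.65 and -0.48 under the same settings except array weights. Gadd45g became -0.12 with quantile normalization, -0.43 with edgeR and -0.77 with edgeR of 9 mice, and Cdkn1a -0.21 with the covariate. Between subsets array weights gave -0.10 for Mdm2, -0.34 for Gadd45a, -0.40 for Gadd45b and -0.75 for Gadd45g. A pseudocount of 10 gave -0.029, -0.062 and -0.17 for the Gadd45 genes, quantile normalization -0.048 for Gadd45g, and edgeR of 9 mice -0.089 for Gadd45b. Leaving out each mouse in Ly6C hi cells gave -0.0037 to 0.69 for Trp53, -0.43 to 0.12 for Ccng1, -2.04 to 0.38 for Zmat3, -0.85 to 0.90 for Gadd45a, -1.02 to 0.93 for Gadd45b and -0.79 to 1.25 for Gadd45g. Between subsets it gave -0.29 to 0.98 for Mdm2, -0.40 to 0.56 for Gadd45a, -0.77 to 1.21 for Gadd45b and -0.63 to 0.93 for Gadd45g. In Ly6C low cells, which were described without a test, the covariate gave -0.24 for Trp53, -0.54 for Mdm2 and -0.0067 for Trp53inp1, quantile normalization -0.23 for Trp53inp1, edgeR of 9 mice -0.028 for Cdkn1a, and leaving out each mouse -0.052 to 0.20 for Cdkn1a and -1.85 to 1.05 for Gadd45b. The cause was not tested. Genes with values at 0 in several libraries are limited by the reads on them.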
